A study of Mus musculus with 10 samples.

Results

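The levels of 4 mature miRNAs that are cut from introns of metabolic genes were followed in the mouse retina, namely mmu-miR-103-3p, mmu-miR-107-3p and both arms of the miR-378a hairpin, mmu-miR-378a-3p and mmu-miR-378a-5p. They were picked by name for their host genes, by a rule that uses no measured value, though with earlier results of these data known, and all 4 of the 4 were found among its 1061 mature miRNAs. Small RNA had been sequenced from both retinas of 5 wild-type C57BL/6J mice, numbered 61, 64, 65, 66 and 68, at postnatal day 34, which gave 5 libraries for each side. Every mouse had carried a goggle with a -20 D lens over 1 eye for 10 days from postnatal day 24, a model of myopia, while its other eye had no lens. Which side carried the lens is not given in the labels, and the retinas were therefore compared as right minus left within mice, with neither side called treated. A lens effect that fell on different sides in different mice would cancel in such a contrast.

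Pantothenate kinases, the products of the Pank genes, carry out the rate-limiting step of coenzyme A synthesis, and miR-103 and miR-107 lie in introns of these genes. Both miRNAs have been linked to insulin sensitivity in liver and fat through caveolin-1 and to lower Dicer levels in tumour cells. Ppargc1b encodes PGC-1β, a coactivator of genes of mitochondrial respiration and fatty acid oxidation, and its intron releases miR-378a, which in mice is known to act on mitochondrial fatty acid metabolism. The outer retina is among the tissues with the highest demand for energy, and photoreceptors are known to use glucose and fatty acids as fuel.

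The sequences of miR-103 and miR-107 are shown because the measurement depends on telling them apart. RefSeq sequences of the GRCm38.p6 build were matched by name for 2 of the 4 miRNAs, miR-103-3p and miR-107-3p. They are given from 5′ to 3′ with the seed, bases 2 to 8, in capitals.
miR-103-3p: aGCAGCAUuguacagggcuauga
miR-107-3p: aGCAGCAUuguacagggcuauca
Both have 23 bases, of which 22 are identical. The only difference is G22C, counted from 1 at the 5′ end, with the base of miR-103-3p named before that of miR-107-3p. Their seed GCAGCAU was held by these 2 of the 1679 mature miRNAs in the sequence table. A read that ends before position 22 matches both miRNAs, and the sources used here do not state how the authors assigned such reads.

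The 3 hairpins below give rise to these 2 miRNAs, and they are shown with both mature arms in capitals, since their arms differed widely in level.
Mir103-1: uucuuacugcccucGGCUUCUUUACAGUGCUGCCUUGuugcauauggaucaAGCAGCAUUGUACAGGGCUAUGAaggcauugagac
Mir103-2: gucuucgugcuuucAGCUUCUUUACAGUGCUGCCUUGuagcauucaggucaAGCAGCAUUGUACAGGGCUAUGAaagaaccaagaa
Mir107: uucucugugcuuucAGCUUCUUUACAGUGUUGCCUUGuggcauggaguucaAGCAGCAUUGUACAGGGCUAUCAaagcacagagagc
Mir103-1 and Mir103-2 hold the same 3′ arm, so their contributions to miR-103-3p cannot be separated. Their 5′ arms differ by G1A from miR-103-1-5p to miR-103-2-5p, and those of miR-103-2-5p and miR-107-5p differ by C16U. The deposited table places miR-103-3p at the Mir103-2 copy, on the plus strand of chromosome 2 from 131288103 to 131288125, in introns of all 7 annotated Pank2 transcripts that span it. The other copy lies on chromosome 11 from 35782447 to 35782469, plus strand, in an intron of Pank3. miR-107-3p lies on the minus strand of chromosome 19 from 34820700 to 34820722, in introns of 3 Pank1 transcripts. Each of these hairpins has the strand of its host gene.

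The deposited values are normalised counts, and the depth of the libraries is unknown. In every library the largest value belonged to miR-182-5p of photoreceptors, which took 56.8% of the normalised total, and miR-183-5p and miR-124-3p, of photoreceptors and neurons, ranked 3 and 13 by mean level, so that defining markers of retina were present. Among markers of neighbouring tissues, miR-133a-3p of striated muscle reached 1596 normalised counts in the left retina of mouse 68, against a median of 295. miR-184-3p of lens and cornea reached 22384 in the right retina of mouse 65, against a median of 1969. The other marker listed for lens, cornea and surface epithelium, miR-205-5p, did not rise in that library, at 25.6 against a median of 27.9. The liver miRNA miR-122-5p was listed at 0 in 4 of 10 libraries and reached at most 1.3. Because 342 ranks carried 1 value in all libraries, a normalised count mostly states the place of a miRNA among all those of its library. Moreover, miRNAs differ in how well adapters are ligated to them, so that levels of different miRNAs are not molar amounts.

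The 4 miRNAs stood at widely separate levels, and their order was the same in every library. miR-378a-3p was the most abundant, with 27647 ± 3370 normalised counts (SD over 10 libraries) and ranks from 22 to 28. miR-103-3p followed with 11013 ± 1436 and ranks from 35 to 43. miR-107-3p had 749 ± 85.7 and ranks from 117 to 134, and miR-378a-5p had 60.4 ± 11.9 and ranks from 269 to 342. The ranges did not overlap: the lowest value of miR-378a-3p was 22384 and the highest of miR-103-3p was 12948, the lowest of which was 9435 against at most 886 for miR-107-3p, whose lowest of 662 lay above the 86.2 of miR-378a-5p. Together they took 0.228% of the normalised total. The coefficient of variation over the 10 libraries was 12.2% for miR-378a-3p, 13.0% for miR-103-3p, 11.4% for miR-107-3p and 19.6% for miR-378a-5p.

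miR-103-3p, the product of the Pank2 and Pank3 introns, was at 9435 normalised counts in the left retina of mouse 61, 9435 in 64, 12948 in 65, 12948 in 66 and 10406 in 68. Its right values were 10406, 9745, 10929.6, 12948 and 10929.6 in the same order of mice. Mouse 66 had the highest value in both eyes, shared with mouse 65 on the left, and mice 61 and 64 were lowest on the left, and the sides overlapped. It took 5 distinct values in the 10 libraries, all of them steps of the fixed rank scale.

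miR-107-3p, the Pank1 product with the same seed, was at 719 normalised counts in the left retina of mouse 61, 678 in 64, 853 in 65, 662 in 66 and 853 in 68. On the right it was at 719, 662, 769.6, 886 and 691. The lowest left value and the highest right value both came from mouse 66, and the sides overlapped over nearly the whole range. miR-107-3p made up 6.37% of the summed normalised counts of miR-103-3p and miR-107-3p.

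miR-378a-3p, the main product of the Ppargc1b intron, had left values of 26689.5 in mouse 61, 24916 in 64, 27971 in 65, 34261 in 66 and 24916 in 68. The right values were 28832, 26689.5, 28832, 30983 and 22384. Mouse 66 was highest in both eyes and mouse 68 lowest on the right and tied for lowest on the left. miR-378a is abundant in striated muscle. In mouse 68, where the muscle miRNA miR-133a-3p was at 1596 on the left and 241 on the right, miR-378a-3p was below its mean for each side, and its left value was higher than its right one. The part of muscle RNA in these values was not tested.

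miR-378a-5p, the minor arm, was the most variable of the 4 and also the lowest. The miRNAs next above and next below it in mean level varied more. They were let-7e-3p, at 60.5 ± 16.3, and miR-32-5p, at 60.3 ± 21.6, against 60.4 ± 11.9 (SD over 10 libraries). miR-378a-5p had left values of 86.2 in mouse 61, 67.0 in 68, 65.7 in 66, 63.7 in 65 and 54.4 in 64. The right values were 40.1, 58.6, 58.6, 54.4 and 55.4 for the same mice in that order. The left retina of mouse 61 gave the highest value of all 10 libraries and the right retina of the same animal the lowest, and the sides overlapped in the middle. Both arms lie on the minus strand of chromosome 18 in introns of all 3 Ppargc1b transcripts that span them, the 3p arm from 61397838 to 61397858 and the 5p arm from 61397875 to 61397896.

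**Figure D1:**
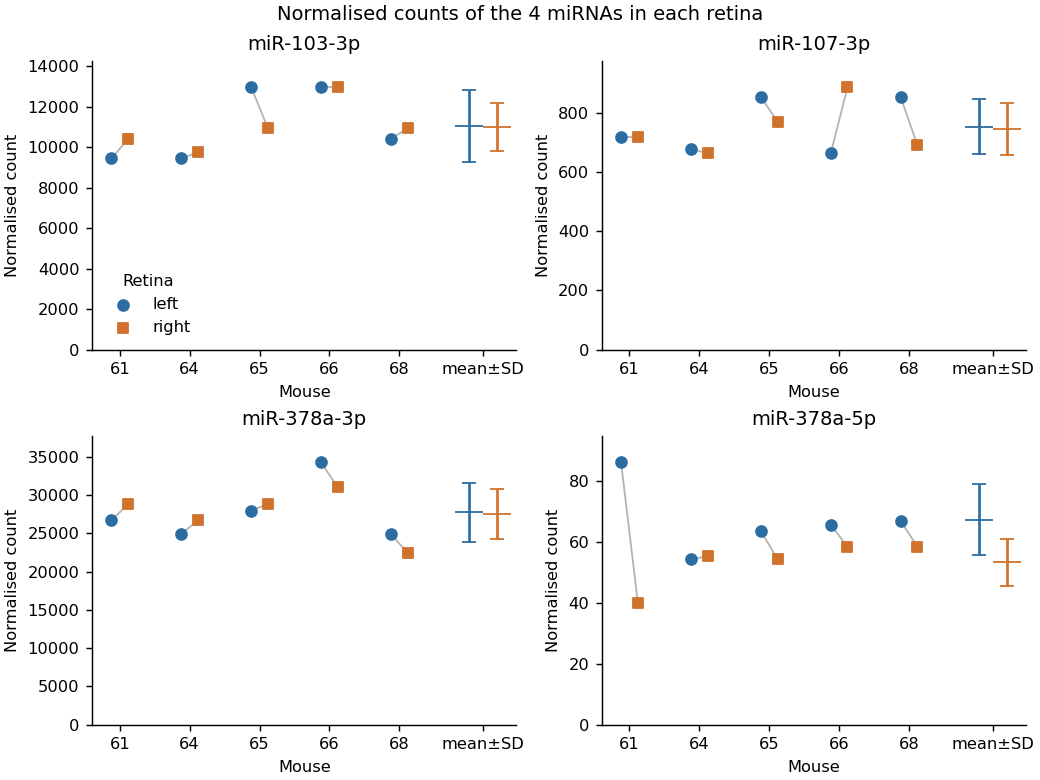
Normalised counts (y axes, from 0) of the 4 miRNAs in the left (blue circles) and right (orange squares) retina of each mouse (x axes), with grey lines joining the eyes of a mouse and the mean ± SD of 5 libraries per side at the right of each panel. Left and right values overlap in all 4 panels, and mouse 61 holds the highest (86.2) and lowest (40.1) value of miR-378a-5p.

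Right was set against left retina to see whether the level of any of these miRNAs depended on the side, given that 1 eye of each mouse had carried the lens. By limma 0 of the 4 passed the adjusted p threshold of 0.05, against 0% of the 484 miRNAs tested, and all 4 intervals of the difference included 0. These intervals rest on the spread over the 5 mice, moderated towards a mean-variance trend over all tested miRNAs. miR-103-3p was at 11034 ± 1791 normalised counts in the 5 left retinas and at 10992 ± 1197 (SD) in the 5 right ones, and its log2 fold change, right minus left on log2(value + 1), was 0.0029 (SE 0.06). By limma its 95% interval ran from -0.15 to 0.15, and the adjusted p was 1. The left and right means of miR-107-3p were 753 ± 93.8 and 746 ± 87.8, with a log2 fold change of -0.01 (limma 95% interval -0.29 to 0.27, adjusted p = 1). Those of miR-378a-3p were 27751 ± 3861 and 27544 ± 3260, with a log2 fold change of -0.0091 (limma 95% interval -0.13 to 0.12, adjusted p = 1). The median distance from a fold change to its interval's end was 0.34 over all tested miRNAs. All 3 intervals were narrower than that, the one of miR-107-3p only slightly. The rank-wise normalisation itself limits the spread of abundant miRNAs, as miR-182-5p, first in every library, held 1 value throughout.

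miR-378a-5p had the largest difference of the 4. Its mean was 67.4 ± 11.6 normalised counts in left and 53.4 ± 7.66 in right retinas (SD, n = 5 each), and the right value was the lower one in 4 of 5 mice. Its log2 fold change was -0.33 (SE 0.17), with a limma 95% interval from -0.74 to 0.09, an unadjusted p of 0.103 and an adjusted p of 0.958. By mouse the difference was -1.09 in 61, 0.03 in 64, -0.22 in 65, -0.16 in 66 and -0.19 in 68. Mouse 61 set much of this value, and without it the log2 fold change was -0.14. In mouse 61, 5 of the 134 tested miRNAs with a mean between 30 and 120 normalised counts (3.73%, a range set after the values were seen) differed between the eyes by at least as much as miR-378a-5p, itself included.

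Across all 484 tested miRNAs, 0 passed the adjusted p threshold of 0.05 by limma (0%), 12 (2.48%) had an unadjusted p under 0.05, and 18 (3.72%) had the same direction in all 5 mice. Of the 4 miRNAs described here, 0 met any of these criteria in this fit, which has mouse as a block. The count at an unadjusted p under 0.05 depended on single mice, with 63 of 483 without mouse 65 and 7 without mouse 64, 66 or 68, while the adjusted count was 0 each time. The median log2 fold change of the 4 miRNAs was -0.01, with 1 above and 3 below 0, and the median of all tested miRNAs was -0.01, with 224 above, 253 below and 7 at 0.

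**Figure D2:**
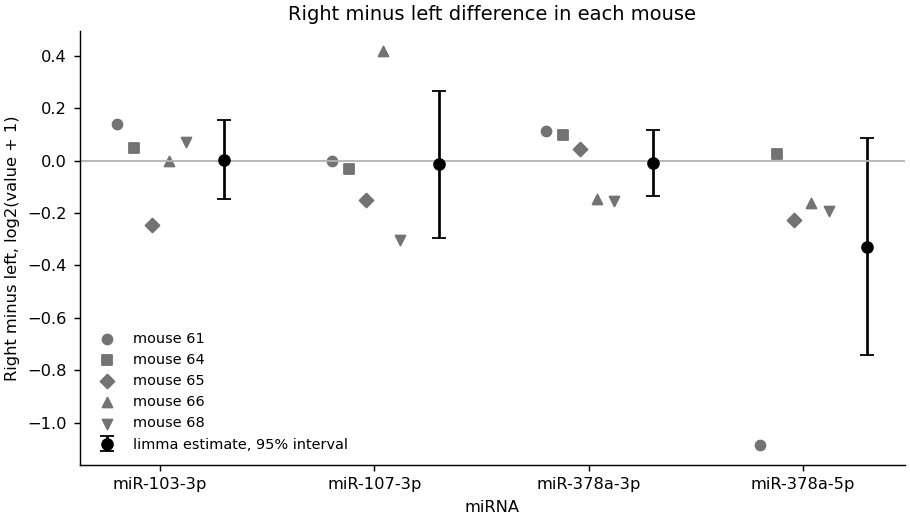
Right minus left difference on log2(value + 1) (y axis) for each of the 4 miRNAs (x axis), with a grey symbol per mouse and, in black, the limma estimate with its 95% interval. All 4 intervals include 0, and mouse 61 lies at -1.09 for miR-378a-5p while the other mice lie between -0.22 and 0.03.

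Ratios within a library are free of any factor applied to that whole library, though not of the rank-wise normalisation, and they were taken for both pairs of related products. The ratio of miR-103-3p to miR-107-3p had a mean of 14.8 ± 2.88 over the left and 14.8 ± 0.62 over the right libraries (SD, n = 5 each), and it ran from 12.2 in the left retina of mouse 68 to 19.5 in that of mouse 66. On the log2 scale it was higher on the right in 3 of 5 mice, with a mean difference of 0.02 ± 0.30 (SD; exact sign-flip permutation test over 5 mice, two-sided, p = 0.875, adjusted over 2 ratios 0.875). The right libraries held this ratio between 14.2 and 15.8.

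The ratio of the arms of miR-378a, 3p to 5p, averaged 420.05 ± 81.6 over the left and 528 ± 122 over the right libraries (SD, n = 5 each). In single libraries it was 310 in the left and 719 in the right retina of mouse 61, 458 and 482 in 64, 439 and 530.3 in 65, 521 and 529 in 66, and 372 and 382 in 68. The right ratio was thus the higher one in 5 of 5 mice, by 0.02 to 1.20 on the log2 scale, with a mean of 0.32 ± 0.50 (SD). In mice 66 and 68 the difference was 0.018 and 0.037. Both are below the 0.044 by which miR-378a-3p changed in mouse 65 between ranks 25 and 24. The exact sign-flip permutation test, two-sided, gave p = 0.0625, the smallest that 5 mice allow, and 0.125 when adjusted over 2 ratios, so that it did not pass. Without mouse 61 the mean difference was 0.10. With 10 rather than 1 added to each value, the mean difference over all 5 mice was 0.28. The exact sign-flip permutation test, two-sided, then gave p = 0.125 before adjustment, so that the 5 mice no longer all shared 1 direction. The arm ratio carries the error of the scarce 5p arm, and it is not independent of the fold change of that arm.

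**Figure D3:**
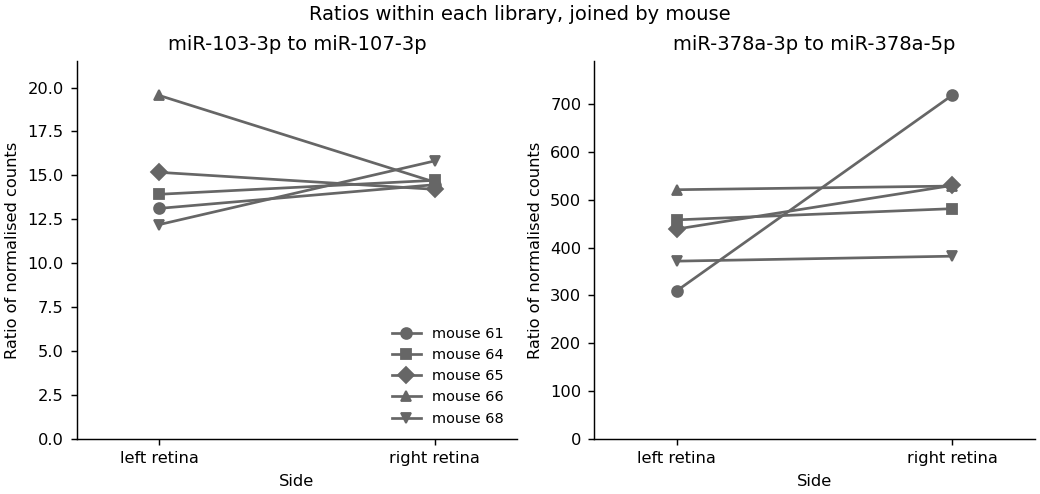
Ratio of normalised counts (y axes, from 0) of miR-103-3p to miR-107-3p and of miR-378a-3p to miR-378a-5p in the left and right retina (x axes), with a line and symbol for each mouse. The arm ratio of miR-378a rises from 310 to 719 in mouse 61, and in the other mice the right value is higher by at most 0.27 on the log2 scale.

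The miRNAs varied between animals in different ways. For miR-103-3p the mean of both retinas was 12948 in mouse 66, 11939 in 65, 10668 in 68, 9921 in 61 and 9590.4 in 64. For miR-378a-3p it was 32622 in mouse 66, 28401 in 65, 27760.5 in 61, 25803 in 64 and 23650.1 in 68. Mice 66 and 65 were highest for both. On the log2 scale the SD between mouse means was 0.18 for miR-103-3p and 0.17 for miR-378a-3p, and the SD between the eyes of a mouse was 0.09 and 0.08. For miR-107-3p and miR-378a-5p the order was the other way, with 0.11 and 0.07 between mouse means and 0.17 and 0.36 between eyes. The medians over the 484 tested miRNAs were 0.19 and 0.24.

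Whether mice differed more than the eyes of a mouse was tested with limma's F test over the mouse terms. miR-378a-3p had an unadjusted p of 0.00913 and miR-103-3p one of 0.0181, while miR-107-3p was at 0.646 and miR-378a-5p at 0.957. After adjustment by limma over all miRNAs these were 0.173, 0.210, 0.881 and 0.996, so that 0 of the 4 passed, against 8 of 484 (1.65%). At an unadjusted p under 0.05 there were 2 of the 4 and 68 of 484 (14.0%). Whatever both libraries of a mouse share in handling cannot be told apart from the animal.

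Over the 10 libraries, log2 values of miR-103-3p and miR-378a-3p had a Pearson r of 0.61 (Spearman's rho 0.58), those of miR-103-3p and miR-107-3p one of 0.47 (rho 0.37), and those of both miR-378a arms one of -0.05 (rho -0.09). These are descriptions over 10 libraries from 5 mice that share 1 normalisation, and the eyes of a mouse are not independent. The most alike miRNAs were picked as those with the highest r among all tested miRNAs, so high values follow in part from the choice. By Pearson's r over the same libraries, miR-103-3p was most like miR-154-5p (0.96), miR-744-5p (0.90) and miR-337-5p (0.88), and without the 2 libraries farthest from its median these were 0.93, 0.82 and 0.88. miR-378a-3p was most like miR-25-3p (0.90), miR-34a-5p (0.81) and miR-345-3p (0.81), which went to 0.74, 0.43 and 0.65. miR-107-3p was most like miR-6240 (0.80), miR-490-3p (0.80) and miR-323-3p (0.77), which went to 0.63, 0.69 and 0.86. For miR-378a-5p the values of miR-30d-5p (0.85), miR-369-3p (0.78) and miR-181c-3p (0.74) went to 0.38, -0.15 and 0.24 without its 2 farthest libraries, both from mouse 61, and these likenesses rested on them.

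No neighbour in mean level was higher, or lower, than its miRNA in all 10 libraries, and the order was not tested. Next to miR-378a-3p were miR-181d-5p, at 29939 ± 9710 (SD over 10 libraries) and higher in 6 of 10 libraries, and miR-101a-3p, at 26989 ± 4359 and higher in 5. miR-103-3p lay between miR-30e-5p, at 11053 ± 1562 and higher in 5, and miR-375-3p, at 10510.3 ± 1423 and higher in 2. miR-107-3p lay between miR-330-5p and miR-1198-5p, which were higher in 6 and 5 libraries, and miR-378a-5p between let-7e-3p and miR-32-5p, which were higher in 7 and 5.

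The opposite arms of the Pank hairpins were barely present. miR-103-1-5p was listed at 0 in 5 of 10 libraries and reached at most 1 normalised count, and miR-103-2-5p had a mean of 2.54, from 0.441 in the right retina of mouse 66 to 5.45 in the right retina of mouse 64. All 3 fell under the mean of 10 that was required for testing. miR-107-5p had the same value as miR-103-2-5p in 10 of 10 libraries, although their sequences differ at 1 base and their hairpins lie on different chromosomes. Of all measured miRNAs, 47 of 1061 miRNAs (4.43%), in 22 sets, shared all 10 values with another, so the values of miR-107-5p and miR-103-2-5p cannot be taken as separate measurements.

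miR-378b, miR-378c and miR-378d, relatives of miR-378a from other loci, were all lower than miR-378a-3p. miR-378c had 803 ± 205 normalised counts (SD over 10 libraries), miR-378d 33.3 ± 5.00 and miR-378b 11.0 ± 2.04. miR-378c was highest in the left retina of mouse 66, at 1274, which was also the highest library of miR-378a-3p, and its log2 values had a Pearson r of 0.63 (rho 0.38) with those of miR-378a-3p over the 10 libraries. The assignment of reads shared by close relatives is likewise not stated. All 3 log2 fold changes were below 0, from -0.16 for miR-378c to -0.02 for miR-378b, with a median of -0.11, and 0 of 3 passed.

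The miR-15 and miR-16 miRNAs, known to repress cell cycle genes and the apoptosis inhibitor Bcl2, share the letters AGCAGC with miR-103 and miR-107 at a position shifted by 1 base. Some are printed beside miR-103-3p to show the shift, with these letters in capitals.
miR-103-3p: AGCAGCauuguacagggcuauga
miR-16-5p: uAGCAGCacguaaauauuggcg
miR-15b-5p: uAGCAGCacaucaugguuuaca
miR-195a-5p: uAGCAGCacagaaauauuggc
miR-322-5p: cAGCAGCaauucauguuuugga
The letters began at base 1 in miR-103-3p and at base 2 in the others, so that the seeds differ (GCAGCAU in miR-103-3p and AGCAGCA in the other printed miRNAs). miR-16-5p was the most abundant of the group, with 41082 ± 3067 normalised counts (SD over 10 libraries), followed by miR-15a-5p with 2740 ± 306 and miR-497a-5p with 815 ± 53.7. miR-15b-5p had 522 ± 60.7, miR-195a-5p 405 ± 43.0 and miR-322-5p 180 ± 24.8, and miR-503-5p was listed at 0 in 7 of 10 libraries. Of 6 tested members, 4 were above and 2 below 0 in right minus left, from -0.15 for miR-15a-5p to 0.17 for miR-322-5p, with a median of 0.01, and 0 passed.

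Other miRNAs known from metabolic genes and tissues were listed for comparison. miR-33-5p and miR-33-3p, from an intron of Srebf2, which encodes a master regulator of cholesterol synthesis, had 49.5 ± 12.7 and 14.2 ± 5.14 normalised counts (SD over 10 libraries), with log2 fold changes of -0.21 and -0.20. Of 10 miRNAs of liver, fat and pancreatic islets 8 were tested, with 3 above 0, 4 below and miR-27b-3p at 0. Their range ran from -0.27 for miR-455-5p to 0.09 for miR-193b-3p, their median was -0.02, and 0 passed. miR-143-3p, an adipocyte and smooth muscle miRNA, was at 17474 ± 1955, and miR-375-3p, an islet and neuroendocrine miRNA, at a level close to that of miR-103-3p. miR-34a-5p had the smallest unadjusted p of these lists, 0.0550, with a log2 fold change of -0.24 and means of 70.3 ± 16.5 in left and 59.3 ± 12.9 in right retinas (SD, n = 5 each; adjusted p by limma 0.958).

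**Figure D4:**
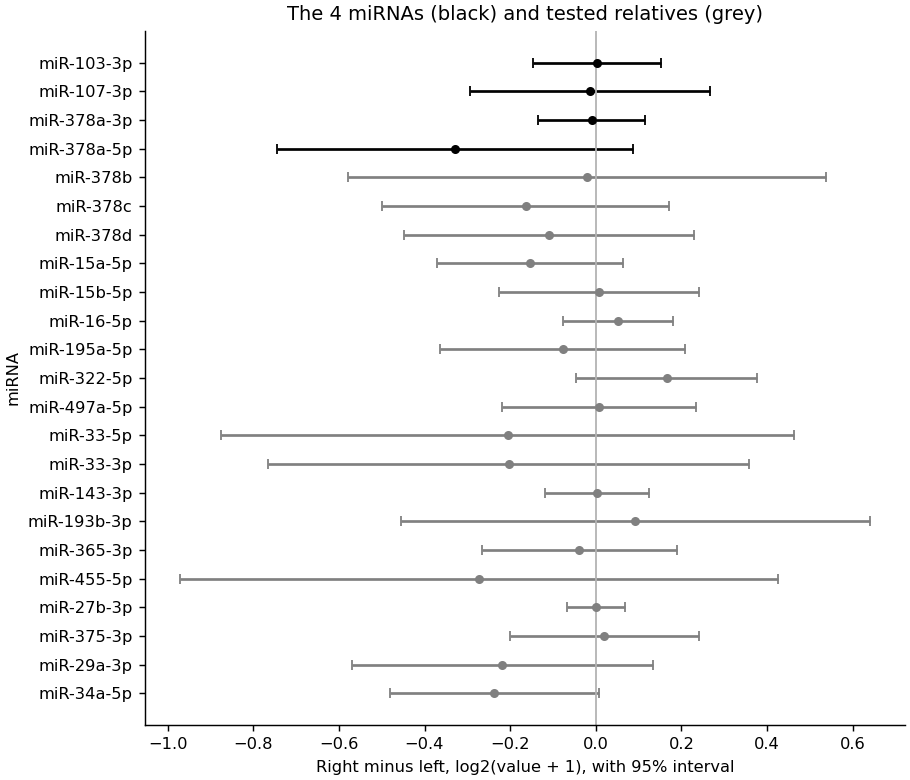
Right minus left log2 fold change with the limma 95% interval (x axis) for the 4 miRNAs (black) and the tested members of the related lists (grey), named on the y axis. Every interval includes 0, and the narrowest belong to abundant miRNAs such as miR-27b-3p and miR-143-3p.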

How the data were processed

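Small RNA of 10 retinas was made into libraries from 50 ng with the TruSeq Small RNA kit, per the labels. The submitters' processing notes name the tools Partek and Bowtie and the builds GRCm38 and mm10. Versions and settings: not given in the sources used here. Each deposited value is a signal, called normalised counts in the authors' table. Totals ran from 17312269 to 17312436 and 342 ranks held 1 value in all libraries, as quantile normalisation gives, so depth is unknown and no counting intervals were possible. The table held 0 columns of other samples.

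Values were analysed as log2(value + 1) for the 484 of 1061 miRNAs with a mean of at least 10, with limma 3.58.1 in R 4.3.3, mouse as a block, a mean-variance trend, two-sided tests and Benjamini-Hochberg adjustment at 0.05 (tested on simulated data). Fold changes of the lowest miRNAs are understated on this scale. Both retinas of a number come from 1 mouse, which pairs them. Deviations of the paired libraries from the mean of their side correlated by 0.0893 (mouse 61) to 0.382 (mouse 64). The ratios were tested by exact sign flips over mice. Members and lists were chosen with earlier results of these data known. Named miRNAs are the members, the lists, the 3 most alike by Pearson's r and the neighbours in mean level. Introns are from GENCODE M21, and the end given is the table's end minus 1, which matches RefSeq. Alternatives were other pseudocounts, filters, scaling, no trend, no mouse block and leaving out each mouse.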

Additional observations from a re-analysis of the deposited data

Results flagged for a closer look

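In 18 sets of 5 values (each miRNA and each ratio by side, and their differences by mouse), 3 held a sample far from the other 4, by a gap of over 0.71 of the whole range. Chance gives such a gap in about 1 of 20 sets. All 3 concern miR-378a-5p in mouse 61 and are not independent of each other. miR-378a-5p in the right retina of mouse 61 was at 40.1 normalised counts, with the other right retinas between 54.4 and 58.6. Its right minus left difference in that mouse was -1.09 on the log2 scale. The log2 ratio of miR-378a-3p to miR-378a-5p in mouse 61 was higher on the right by 1.20. The library had 196 miRNAs at 0, and the left one of this mouse 162, the fewest of all libraries; the part of this in the difference was not tested.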

How the results depend on the processing

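Under 12 alternatives the count of miRNAs past the threshold in right minus left retina stayed at 0, among them the fit with no replicate block (0) against the paired one. By limma with no block, miR-378a-5p had an unadjusted p of 0.0462, against 0.103 in the paired fit. The 12 miRNAs with an unadjusted p under 0.05 became 19 with no mean-variance trend, 25 with no filter on low values (of 1061 tested) and 5 with the stricter filter (of 260 tested). Of 47 recomputed fold changes of the 4 miRNAs 0 passed, as did 0 of 43 recomputed tests between mice. The signs of 3 fold changes, all near 0, were not fixed. With median-ratio scaling miR-107-3p went to 0.0019 and miR-378a-3p to 0.0064. Leaving out each mouse in turn, miR-103-3p ran from -0.032 to 0.065, miR-107-3p from -0.12 to 0.059, miR-378a-3p from -0.039 to 0.027 and miR-378a-5p from -0.42 to -0.14. The ratio of miR-103-3p to miR-107-3p ran from -0.073 to 0.125 and the arm ratio of miR-378a from 0.10 to 0.39. With a pseudocount of 10 the difference in the arm ratio was 0.28, and its direction was not shared by all 5 mice. The 8 miRNAs that differed between mice were 3 to 7 when each mouse was left out, 5 with no mean-variance trend and 10 with median-ratio scaling. The cause was not tested. Mean levels of the 4 miRNAs moved by less than 1 SD in 24 of 24 recomputations. Most of these left out 1 mouse, which cannot move a mean by that much, so this count does not show that the levels are stable. With median-ratio scaling the means were 10859 for miR-103-3p, 739 for miR-107-3p, 27262 for miR-378a-3p and 59.5 for miR-378a-5p. miR-378a-5p fell under the stricter filter on low values, so that no value could be had there.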
